A study of Mus musculus with 8 samples.

Results

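The small RNAs described here are those that the deposited sequence table annotated with an MLT name, the label of long terminal repeat (LTR) elements that inserted into mammalian genomes long before the mouse lineage arose. They were taken as every row whose annotation begins with MLT or MST, each row being 1 distinct sequence, with 24 to 33 nt as the main length window. The rule found 49865 sequences of 6246223 in the table, and 35889 of 4883266 in the window. All of them carried an MLT name: 0 rows began with MST, so the values below describe MLT elements alone.

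The series held 8 libraries of small RNA of 19 to 33 nt from mouse testes, made by joining linkers to both RNA ends with T4 RNA ligase and amplifying by PCR. Testes homozygous for the tdrd6 knockout were sampled at 18 and 25 days after birth and at 6 weeks, each beside testes heterozygous for it. Testes homozygous for the tdrd1 knockout were sampled 18.5 days after conception, beside heterozygous ones. Every animal thus carried at least 1 knockout allele, and no wild-type library was among them. Strain, number of animals and pooling are not given in the sources used here. Tdrd1 and Tdrd6 encode Tudor domain proteins of germ cells that bind Piwi proteins through methylated arginines. The table is a single list over all libraries, with neither a library nor a read count beside a sequence, so homozygous and heterozygous testes could not be compared, depth per library is unknown, and every value counts distinct sequences and not their abundance.

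MLT1 elements belong to the mammalian apparent LTR retrotransposons (MaLRs), non-autonomous relatives of the ERVL endogenous retroviruses, and MLT2 names mark old LTRs of ERVL itself. Names ending in -int denote the internal part between the LTRs. Piwi-interacting RNAs (piRNAs) guide Piwi proteins in germ cells. They are cut from long single-stranded precursors, usually begin with U, written T here, and in the ping-pong cycle pairs of piRNAs from opposite strands overlap by 10 nt at their 5′ ends, which places A at position 10 of the partner. Fetal mouse testes make many transposon piRNAs, whereas pachytene spermatocytes make most of theirs from intergenic clusters.

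The sequences on which the results turn are shown first. The 4 below are the longest form at the 5′ end with most length variants, from the 4 richest stretches of MLT sequence that could be placed in a transcript. Capitals mark positions 1 and 10.
MLT1D in Gm21269, chromosome 7: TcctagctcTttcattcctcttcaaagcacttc
MLT1B in 4921525O09Rik, chromosome 13: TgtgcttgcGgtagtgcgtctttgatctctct
MLT1D in Gm21269, second stretch, chromosome 7: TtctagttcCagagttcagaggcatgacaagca
MLT1C in Gm21269, chromosome 7: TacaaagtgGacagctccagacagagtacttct

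Each of these 5′ ends was seen in 9 or 10 lengths, the shortest of 24 nt in all 4. They share T at position 1, and A is at position 10 in none of them. The next 3 pairs overlap by 10 nt on opposite strands, and capitals mark those first 10 bases. The gene given is the one that sequences of the stretch matched. The MLT1J1 stretch matched Gm45006 with only 51 of its 162 sequences, so whether this pair itself lies in the gene is not known.
MLT1J1 in Gm45006, main strand: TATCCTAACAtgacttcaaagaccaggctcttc
MLT1J1 in Gm45006, other strand: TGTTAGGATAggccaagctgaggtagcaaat
MLT1D in Gm21269, main strand: TGGCATTTCAgatttggccttgacttctga
MLT1D in Gm21269, other strand: TGAAATGCCAaatcggaagtgctttg
MLT1C in Gm21269, main strand: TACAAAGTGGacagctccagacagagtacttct
MLT1C in Gm21269, other strand: CCACTTTGTAgaatccttttgacagcaaa

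In the MLT1J1 and MLT1D pairs both partners had T first and A at position 10. The pairs were chosen as complementary over these 10 bases, so T first in 1 partner sets A at position 10 of the other. In the MLT1C pair the partner on the other strand began with C. The main strand was represented by 9, 7 and 9 lengths at these ends, and the other strand by 1 sequence in each pair. In each stretch the pair with most sequences at its ends was printed, so high numbers are built in. Only stretches placed in a transcript were used. This left out the stretches with most pairs, MLT1I-int with 21, MLT2B3 with 15 and MLT1I with 10.

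MLT1 names held most of the small RNAs. The window contained 61 names, with 26396 sequences (73.5%) on MLT1 LTRs, 3142 on MLT1 internal parts, 5610 (15.6%) on MLT2 and 741 on MLT-int. MLT1A0 came first with 4013 sequences, followed by MLT1B with 3204, MLT1D with 2859, MLT1C with 2810, MLT2B3 with 2480 and MLT2F with 1719. These first 4 names together held 35.9% of the sequences, 21 names had at least 500, and 26 had fewer than 100. MLT1I-int had 1622 sequences, more than the 844 of its LTR MLT1I, whereas MLT1F-int had 784, fewer than the 1384 of MLT1F.

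The sequences had the length and first base of piRNAs. They averaged 27.6 ± 2.16 nt (SD over 35889 distinct sequences) with a mode of 27 nt, and 28.96% were of 29 to 31 nt. T was first in 70.5% of them (exact Clopper-Pearson 95% interval 69.99 to 70.93%). These intervals cover counting error only, and overlapping sequences are not independent molecules. The share with T first was 73.9% among the MaLR elements named MTB to MTE, 72.4% among ORR1, a further MaLR group, and 69.4% among the far older MIR and L2 elements. The whole table in the same window, MLT included, had T first in 71.2%, with 28.7% of 29 to 31 nt and a mean of 27.6 nt. These values of MLT were thus close to those of all sequences. Differences between these lists were not tested.

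First base and length varied with the name. Among the 21 names with at least 500 sequences, T was first in 86.3% of MLT1A (83.3 to 88.98%) and 83.4% of MLT1A1 (81.3 to 85.3%). It was first in 54.0% of MLT2F (51.6 to 56.4%), 55.5% of MLT1I (52.0 to 58.8%) and 56.9% of MLT1I-int (54.5 to 59.3%). 42.7% of MLT1E1 sequences were of 29 to 31 nt, against 20.8% of MLT1A, and the modal length was 30 nt for MLT1E1, 29 nt for MLT2C1 and 26 or 27 nt for the other 19 names. The values were close between MLT1 names grouped by letter, with T first in 72.7% of MLT1A and MLT1B, 72.8% of MLT1C to MLT1F and 72.9% of MLT1G to MLT1N.

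A at position 10 stood only slightly above its neighbours. It was present in 29.5% of MLT sequences (29.02 to 29.96%), beside 25.7% at position 9 and 28.1% at position 11, an excess of 2.59 percentage points over the mean of those 2 positions. The same excess was 6.97 points in MTB to MTE, 9.49 points in ORR1 and 1.33 points in MIR and L2. In all 4 lists A was more frequent at position 5 than at position 10, with 34.95% of MLT sequences there. In the whole table, over the same window, A was at position 10 in 30.7% of sequences. Among MLT sequences it was found there in 28.7% of those with T first and in 31.4% of those without. Among the 21 names with at least 500 sequences it ranged between 24.02% in MLT-int and 36.1% in MLT1K.

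**Figure D1:**
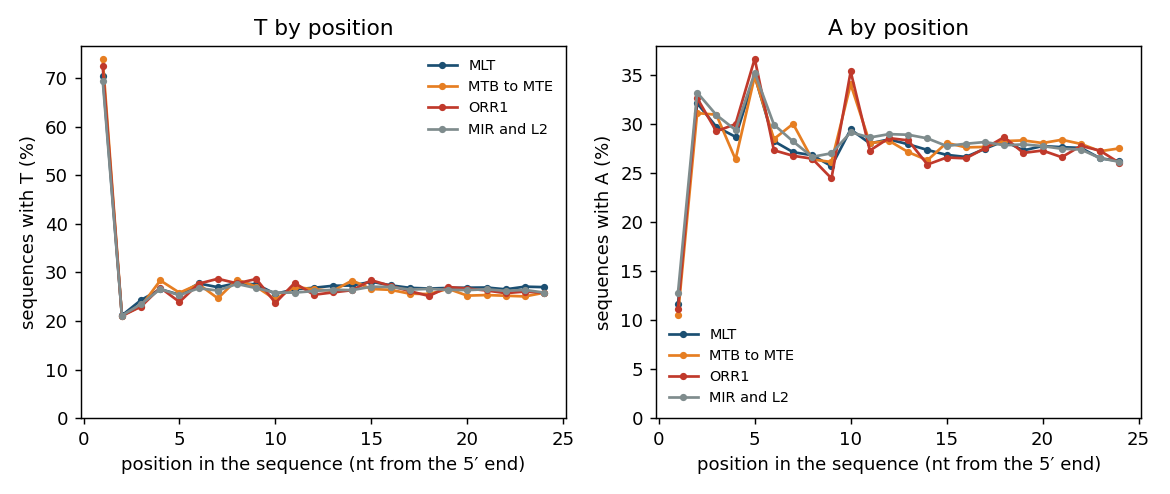
Share of distinct sequences of 24 to 33 nt with T (left) and with A (right) at each position from the 5′ end, for MLT, MTB to MTE, ORR1, and MIR and L2. All 4 lists peak at T at position 1, near 70%, and at position 10 the MLT point for A, at 29.5%, lies close to that of MIR and L2 and below those of ORR1 and MTB to MTE.

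Partners on the opposite strand were searched for within the list of 5′ ends. A partner was any end in the list whose first 10 bases were complementary to the bases compared, whether or not both came from 1 locus. Of 19475 distinct MLT 5′ ends (first 20 nt), 6.92% (6.56 to 7.28%) had a partner whose 5′ end overlapped by 10 nt, against a mean of 5.14% (SD 0.115, highest 5.33%) over overlaps of 11 to 20 nt. The ratio was 1.35. It was 1.39 in MTB to MTE, where 25.4% of ends had such a partner, 1.503 in ORR1 with 32.1%, and 1.29 in MIR and L2 with 11.5%. The same number of bases, 10, was compared at every overlap. Only at 10 nt does the comparison take in position 1 of both ends, each set against position 10 of the other. Among MLT sequences T was at position 1 in 70.5% and A at position 10 in 29.5%. The part of this base composition in the ratios was not tested. Matches that need no shared locus grow with the size of the list. MTB to MTE had 44516 ends, ORR1 52098 and MIR and L2 32091, so the shares are not comparable between lists.

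MLT sequences mostly had a single source. In the window 94.7% mapped to 1 position of the genome by the authors' map number, beside 83.1% of MTB to MTE, 76.95% of ORR1, 97.6% of MIR and L2 and 81.4% of the whole table. MLT1A0 was the exception among the large names, with 69.2%, and 1228 of the 1656 MLT sequences at 2 positions were MLT1A0. MLT2B3 accounted for 283 more. Joined by shared bases as described next, 1416 of the 1656 (85.5%) fell into 4 stretches, 3 of MLT1A0 with 425, 391 and 369 sequences and 1 of MLT2B3 with 231. In each of the 4, at most 1 sequence was on the minor strand.

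The 33990 sequences mapped to 1 position were then joined into stretches wherever 2 of them shared at least 20 bases and matched over their whole overlap, on either strand. A stretch is thus a run of RNA sequence that the members themselves cover, and 1 element may hold several. The MLT1B stretch in 4921525O09Rik runs across a splice junction, with matches in exons 2 and 3. There were 10185 stretches. Of these, 78 held at least 50 sequences and are called dense below. They contained 18638 sequences (54.8%), and the 10 richest alone held 23.3%. With each 5′ end counted once, dense stretches held 30.3% and the 10 richest 11.9%. At the other end, 8371 sequences (24.6%) overlapped no other MLT sequence by these rules and are called lone. Counted by 5′ ends, lone ones made up 44.3%, so the order of the dense and lone shares turns round. Dense stretches held 25.4% of the sequences in MTB to MTE, 29.9% in ORR1 and 51.7% in MIR and L2.

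The richest stretch was a part of MLT1I-int, 516 nt long, with 1401 sequences, or 86.4% of all sequences of that name. MLT1A0 followed with 997 sequences over 354 nt. The third spanned an MLT2B3 LTR and adjoining MLT-int, with 953 sequences over 412 nt, and was the 1 dense stretch of 78 with more than 1 name. MLT1F had 851 sequences over 401 nt, MLT2F 797 over 311 nt, MLT1I 632 over 234 nt and MLT1D 578 over 231 nt. The ranks 8 to 10 were MLT1J with 578 sequences over 322 nt, a second MLT2B3 stretch with 563 over 341 nt, and MLT1F2 with 556 over 276 nt. The 78 dense stretches led with 24 different names, were 46 to 516 nt long (median 108 nt), and covered 10977 nt in all at 1.70 sequences per nt.

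Names of like number differed in how far their sequences overlapped. Dense stretches held 99.2% of MLT1I-int, 94.5% of MLT1F-int, 87.1% of MLT2F and 86.4% of MLT2B3. They held 46.2% of MLT1A0, 43.8% of MLT1C, 13.9% of MLT1A1 and 13.3% of MLT1K. No MLT1A sequence was in one (0 of 575, which allows a share of up to 0.522%), and 65.7% of MLT1A sequences were lone.

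**Figure D2:**
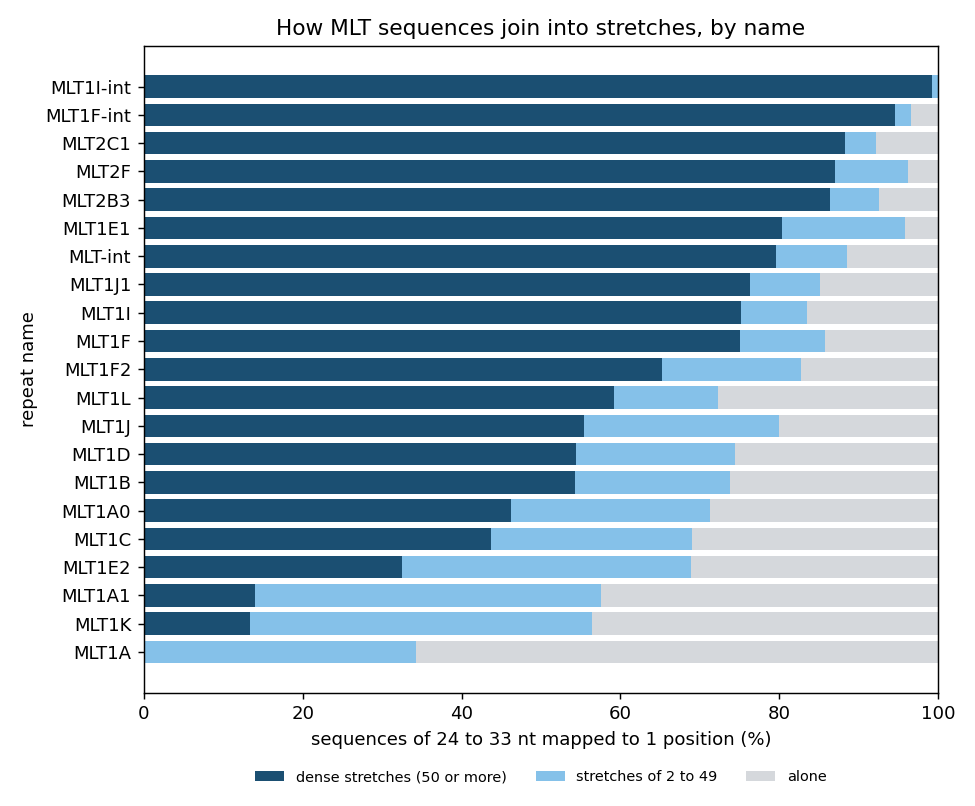
Share of the sequences mapped to 1 position that lay in dense stretches (50 or more sequences), in stretches of 2 to 49, or alone, for the 21 MLT names with at least 500 sequences of 24 to 33 nt. Bars run from MLT1I-int, 99.2% dense, at the top to MLT1A, 0% dense, at the bottom.

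The small RNAs of dense stretches came mostly from 1 strand. All 78 had at least 95% of their sequences on the same strand, 44 had all of them there, and the lowest share was 96.4%. In the richest stretch, MLT1I-int, 1368 sequences lay on the main strand and 33 on the other. The second MLT2B3 stretch had 545 and 18, MLT1I had 618 and 14, and MLT1F had 851 and 0. At least 95% on 1 strand was reached by 81 of 96 dense stretches (84.4%) in MTB to MTE, 101 of 104 (97.1%) in ORR1 and 132 of 147 (89.8%) in MIR and L2. The difference between the lists was not tested.

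Dense and lone sequences differed in first base and in length. T was first in 61.5% of sequences in dense stretches (60.8 to 62.2%) and in 85.1% of lone ones (84.4 to 85.9%). Sequences of 29 to 31 nt made up 35.2% of those in dense stretches (34.5 to 35.8%) and 16.4% of lone ones (15.6 to 17.2%). Mean length was 27.9 ± 2.35 nt in dense stretches and 27.03 ± 1.68 nt in lone sequences (SD over 18638 and 8371 distinct sequences). A at position 10 was found in 28.4% of sequences in dense stretches (27.7 to 29.01%) and in 29.03% of lone ones (28.1 to 30.01%). The other lists had the same order for T: 62.7% dense and 79.9% lone in MTB to MTE, 61.4% and 78.4% in ORR1, 58.2% and 83.3% in MIR and L2. How deeply each stretch was sequenced differs between dense and lone sequences and is unknown, and its part in these differences was not tested.

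**Figure D3:**
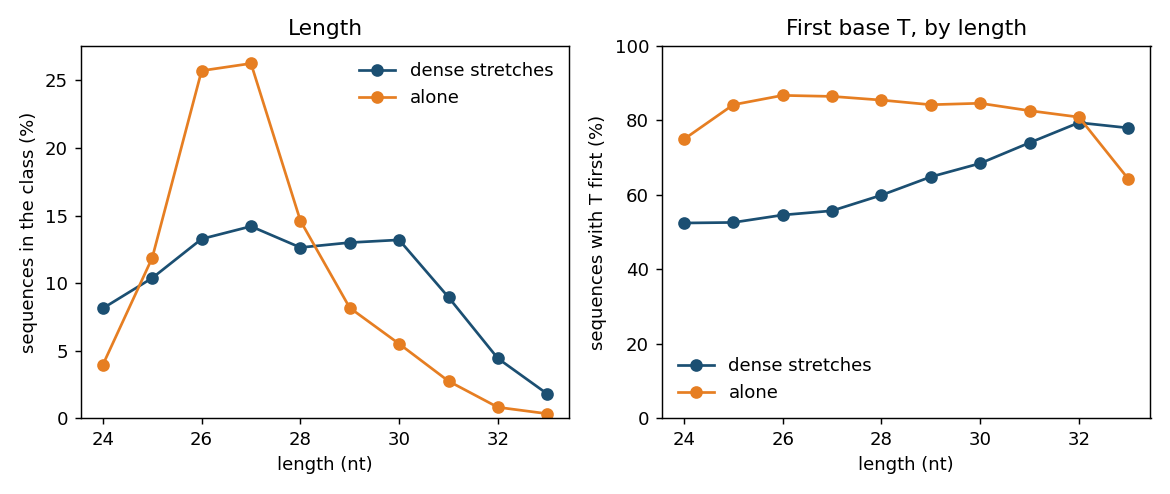
Left, length distribution of MLT sequences in dense stretches and of lone ones, as the share of each class at each length. Right, share with T first at each length. Lone sequences peak at 26 and 27 nt with 25.7% and 26.3%, whereas dense stretches have a broad plateau of 26 to 30 nt. T first climbs with length in dense stretches, with 52.4% at 24 nt and 79.4% at 32 nt.

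Within dense stretches the first base was related to length. T was first in 52.4% of sequences of 24 nt, 55.7% of 27 nt, 68.5% of 30 nt and 79.4% of 32 nt. Among lone sequences it was 74.9% at 24 nt, 86.4% at 27 nt, 84.6% at 30 nt and 80.9% at 32 nt. At 33 nt T was first in 78.0% of the sequences in dense stretches and in 64.3% of the 28 lone ones. In dense stretches, ends with T carried more length variants than other ends, as given below. The part of this, and of sequencing depth, in the relation of first base to length was not tested. The dense stretches themselves varied in length: the mode was 26 or 27 nt in 49 of them, 28 or 29 nt in 13, and 30 or 31 nt in 16. The second MLT2B3 stretch was of the longest kind, with a mode of 30 nt and 46.5% of its sequences at 29 to 31 nt, whereas in MLT2B3 of rank 15 the mode was 26 nt and that share 24.9%. Both carry the same name.

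T was more frequent at the 5′ ends than in the elements themselves. T made up 28.7% of the 10977 bases of the dense stretches, 42.3% of the 5611 distinct positions at which a sequence of the main strand started, and 29.7% of the bases just before such a start. The base after the 3′ end was T in 28.7%. In 78 of 78 dense stretches, T was more frequent at the 5′ ends than in the stretch. The ends at T also carried more length variants: 4.81 sequences per end at 2372 ends with T, against 2.19 at 3239 ends with another base. At least 10 sequences began at 63 of the ends with T (2.66%) and at 2 of the others (0.0617%).

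The MLT1D element in Gm21269 shows this base by base. Its 2 stretches are printed as the RNA strand, with capitals at positions where at least 5 sequences began.
MLT1D, chr7:73824598-73824828, + strand (GRCm38): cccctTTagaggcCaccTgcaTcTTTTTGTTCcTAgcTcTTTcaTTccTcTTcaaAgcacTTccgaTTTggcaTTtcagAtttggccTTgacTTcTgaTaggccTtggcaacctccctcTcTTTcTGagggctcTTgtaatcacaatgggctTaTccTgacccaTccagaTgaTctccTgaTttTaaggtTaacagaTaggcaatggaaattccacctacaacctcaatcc
MLT1D, chr7:73824385-73824594, + strand (GRCm38): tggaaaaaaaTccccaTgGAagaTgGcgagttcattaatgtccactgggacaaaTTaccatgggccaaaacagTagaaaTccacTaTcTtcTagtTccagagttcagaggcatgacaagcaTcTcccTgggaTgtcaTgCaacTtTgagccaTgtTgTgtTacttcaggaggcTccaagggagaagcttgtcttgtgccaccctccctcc

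Of the 60 capitals in the first, 53 are T (88.3%), where T is 32.9% of the stretch. Of the 28 in the second, 24 are T (85.7%), where T is 24.8% of the stretch. Sequences began at 149 of 231 positions in the first and at 128 of 210 in the second, so most positions gave at least 1 sequence and the frequent ones were mostly T. Several frequent starts follow each other directly, as in the run TTTTTGTTC of the first stretch.

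Where both strands were present, 5′ ends overlapped by 10 nt more often than by other lengths. Over the whole set, 397 of 10185 stretches had sequences on both strands, and 147 pairs of 5′ ends overlapped by 10 nt. Overlaps of 1 to 19 nt other than 10 averaged 91.8 pairs (SD 13.3), with the highest, 120, at 18 nt, which gives a ratio of 1.60. In dense stretches there were 98 such pairs against a mean of 74.2 (ratio 1.32), and in the remaining stretches 49 against 17.6 (ratio 2.78). Overlaps under 20 nt could be seen only where other sequences bridged the 2 strands, so pairs that stand alone were missed.

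The pairs were unevenly spread. They lay in 63 stretches, and 3 of these, MLT1I-int with 21, the second MLT2B3 stretch with 15 and MLT1I with 10, held 31.3% of them. Without the MLT1I-int stretch there were 126 pairs against a mean of 74.1. Among small stretches, 2 of MLT1C with 21 and 15 sequences had 4 pairs each. The count of pairs is small beside the 18887 distinct 5′ ends laid out in stretches.

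**Figure D4:**
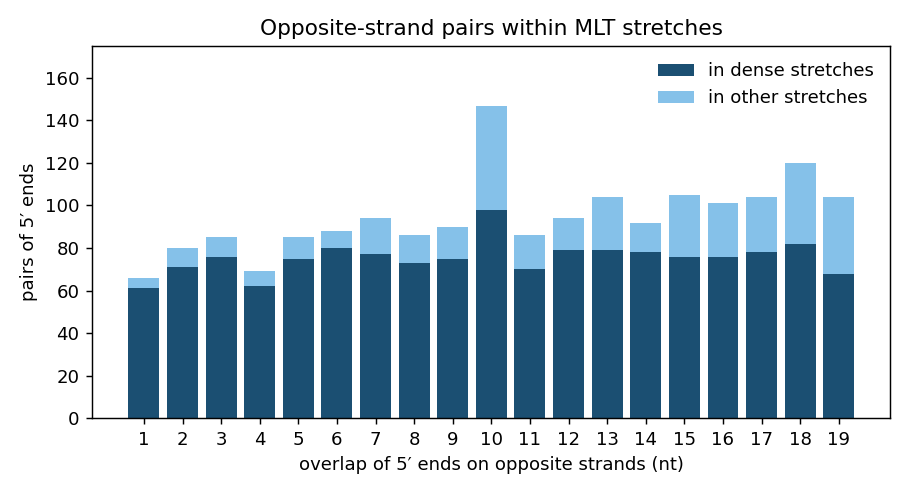
Pairs of 5′ ends on opposite strands within MLT stretches, by the overlap of the 2 ends in nt, with pairs in dense stretches dark and in other stretches light. The bar at 10 nt reaches 147 pairs and the next highest, at 18 nt, reaches 120.

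Ends that meet head to tail were counted on the main strand of dense stretches. Of the distinct 3′ ends, 59.9% were followed directly by the 5′ end of another sequence, 59.6% had a 5′ end at a distance of 2 nt and 58.9% at 3 nt. The share declined at every further step, to 49.05% at 20 nt, and the value at 1 nt did not stand out from that decline. Starts lay at 5611 positions over the 10977 bases of these stretches, so a 5′ end was common at any distance. Without read counts, a head-to-tail pattern could be hidden by this, and no conclusion on it is drawn.

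Members were next matched, over their full length, to the spliced transcripts of GENCODE M21 (GRCm38), since no genome sequence was used and introns and intergenic regions were not searched. Of the 33990 sequences mapped to 1 position, 4085 (12.02%, 11.7 to 12.4%) matched a transcript, 4040 of them in 1 gene. These lay in 340 genes, 169 of which had 1 member. Sense to the gene were 3825 of the 4040 (94.7%), and 215 were antisense.

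The matches concentrated in a few noncoding genes. Gm21269, a long intergenic noncoding RNA gene (chr7:73816546-73838898, + strand), held 1808 sense and 11 antisense sequences of MLT1D and MLT1C, in 6 dense stretches. They were 7.59% of the 23814 distinct sequences of any annotation, mapped to 1 position, that matched this gene in sense. Next were 4921525O09Rik on chromosome 13 with 420 sense sequences of MLT1B, and Gm45006 with the biotype TEC, given to transcripts still to be tested by experiment (chr7:73797603-73798292, - strand), with 302 of MLT1J1, 41.1% of the 735 sense sequences there. 4932702P03Rik, on chromosome 13, had 112 sense sequences of MLT1B and 4930558J18Rik, on chromosome 1, had 50 of MLT1N2. By the same count, MLT members were 9.55% of the sense sequences of 4921525O09Rik, 9.78% in 4932702P03Rik and 7.04% in 4930558J18Rik. Of the 78 dense stretches, 12 matched 1 gene, and the main strand of all 12 was sense to it. A stretch of MLT1J1 in Gm45006 matched with 51 of its 162 sequences and the MLT1N2 stretch in 4930558J18Rik with 21 of 76, so both lay in their gene only in part.

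MLT sequence in Gm21269 gave small RNAs at about the density of its surroundings. The longest transcript is 12456 nt long with 4 exons. Divided into 125 windows of 100 nt, 10 windows held MLT sequences, with a median of 216 sense sequences of any annotation each, against 189 in the windows without. The MLT1C stretches lay at chr7:73821370-73821744 and the MLT1D stretches, described above, at chr7:73824385-73824828, both in the first exon. The 4 MLT1C stretches follow each other. The first 2 are separated by a gap, and the others overlap by fewer than the 20 bases needed to join them.

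**Figure D5:**
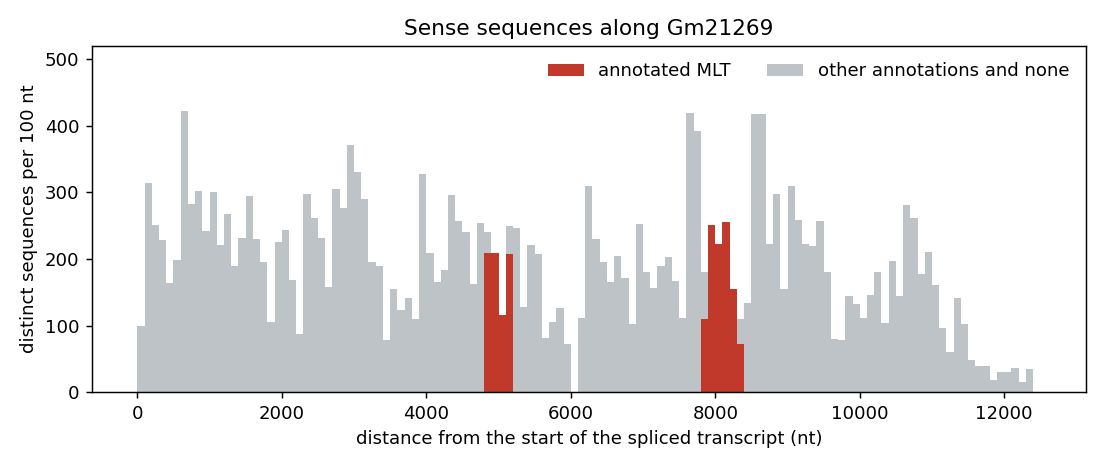
Distinct sense sequences mapped to 1 position along the spliced transcript of Gm21269, in windows of 100 nt, stacked as those annotated MLT (red) and all others (grey). The MLT windows lie in 2 blocks, MLT1C and then MLT1D, and their full heights, with a median of 216, are within the range of the windows beside them.

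Protein-coding genes held fewer MLT sequences. There were 719 in sense and 97 antisense. Of the 719, 565 (78.6%) lay in 3′ untranslated regions, 20 in 5′ untranslated regions and 17 in coding sequence. The other 117 were in transcripts without a coding sequence. How MLT elements themselves are spread over these regions was not counted, so this split is not shown to be a property of the small RNAs. T was first in 81.5% of the 719 (78.5 to 84.3%), against 66.6% of the 3106 sense sequences in other genes. Antisense sequences had T first in 81.4% of the 97 in coding genes and in 82.2% of the 118 in other genes. The high share was thus not particular to sense sequences of coding genes. None of the 719 lay in a dense stretch, which allows a share of up to 0.417%, and 52.02% were lone. Of the 3106 sense sequences in the other genes, 78.4% lay in dense stretches and 8.82% were lone. Stretches join only sequences with an MLT name, so these shares also depend on how long the annotated part of a transcript is. That length was not measured.

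The coding genes with most were Knop1, which encodes a nucleolar protein, with 35 sense sequences, and Plaur, the urokinase receptor gene, with 14 sense and 21 antisense. Ceacam19, of the carcinoembryonic antigen family, had 28 sense and 4 antisense sequences from MLT1I, MLT1D and MLT1J. Among MLT sequences both strands were thus of like number in Plaur, whereas in Knop1 there were 0 antisense sequences. Sequences of any annotation mapped to 1 position numbered 102 sense and 117 antisense in Plaur, 323 and 9 in Knop1, and 114 and 53 in Ceacam19. The contrast between Plaur and Knop1 was therefore not particular to MLT. Genes were named here in order of their number of members.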

How the data were processed

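The deposited table pools the 8 libraries into 3 columns, a sequence, a map number and an annotation, and 0 of the columns belong to 1 library. The map number, MAPNUM per the file headers, is read as the authors' count of genome positions for a sequence; it is not a read count. The aligner, build and repeat annotation used are not given in the sources used here. Sequences of 24 to 33 nt were counted once each. The table holds lengths of 15 to 36 nt, wider than the labelled selection. The members and lists were chosen with earlier results of these data known.

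Stretches were built by joining sequences that share 20 bases and are identical over the overlap. Stretches whose letters clashed were rejoined with 1 more base at a time. They replace the genome loci first planned, because no genome sequence was used. The joining, the strand and pair counts and the transcript matching were tested on simulated random sequence and recovered what was put in. The simulated loci held no related copies, so they did not examine the rejoining, from which 168 MLT stretches came. Names described were those with at least 500 sequences, at most 15 in order of number. The other 6 with at least 500, the genes and the printed stretches were added after values were seen. Repeat names, genes and exons come from the table and GENCODE M21. Intervals are exact Clopper-Pearson at 95%, a count of 0 allows 3, and no test between groups was possible. Python 3.11.15, pandas 2.3.3, NumPy 2.4.6, SciPy 1.17.1 and matplotlib 3.10.9 were used.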

Additional observations from a re-analysis of the deposited data

Results flagged for a closer look

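Sequences with an MLT name outside the main window were not used above. There were 7420 of 15 to 18 nt, a length below the labelled selection, with T first in 28.4% and 21.6% mapped to 1 position, and 15.5% of them were the start of a longer MLT sequence. There were 6403 of 19 to 23 nt, with T first in 45.9% and 87.8% mapped to 1 position, and 67.9% of them were the start of a longer one. There were 153 of 34 to 36 nt, above the labelled selection, with T first in 82.4% (75.4 to 88.0%) and 91.5% mapped to 1 position.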

How the results depend on the processing

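Of 58 values under other settings, 25 shares and means moved beyond the counting interval and the other 33 stayed close. A change of direction was defined only for the ratio of pairs at 10 nt, which stayed above 1. The order of the dense and lone shares turned round with each 5′ end counted once. T first in all MLT sequences was 71.3% at 25 to 32 nt, 71.3% with 1 position, 69.5% with each 5′ end counted once, 71.6% without MLT2 names and 71.9% without the richest stretch. Mean length was 27.8 nt at 25 to 32 nt, 27.9 nt per 5′ end and 27.6 nt without MLT2 names. The share mapped to 1 position was 96.5% per 5′ end, and the share in transcripts 10.9% per 5′ end. The 10 richest stretches held 22.4% at 25 to 32 nt, 11.9% per 5′ end, 24.7% with 18 shared bases and 22.3% with 22. Dense stretches held 52.4%, 30.3%, 56.2% and 52.7% under those 4 settings in that order, and lone sequences were 25.7%, 44.3%, 23.6% and 26.2%. In dense stretches 39.1% were of 29 to 31 nt at 25 to 32 nt, and per 5′ end 49.01% were of that length and 42.3% had T first. Each 5′ end was represented by its longest sequence, so greater lengths per 5′ end, also in the mean of 27.9 nt, are built in. Counting each 5′ end once thus moved the dense, lone and 10-richest shares by over 1.5 times. The ratio of pairs at 10 nt, here to the mean over 1 to 17 nt, was 1.65, and it was 1.67 at 25 to 32 nt, 1.74 with 18 shared bases and 1.40 with 22. The 18 and 22 shared bases, and the other settings for dense and lone sequences, were chosen after seeing the data. Loci joined at 5, 10 or 20 kb and windows rich in piRNAs were not run, as they need a genome sequence. No paired analysis was possible because the table has no column per library. Depth is unknown.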
